A study of Mus musculus with 6 samples.

Results

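Scavenger receptors are proteins with which macrophages bind and take up modified lipoproteins, hemoglobin complexes, microbes and dying cells. The 8 genes *Msr1*, *Marco*, *Cd163*, *Cd68*, *Cd5l*, *Scarb1*, *Stab1* and *Olr1* were taken by name from the 22248 genes with deposited values, and each was found once. The values are fragments per kilobase of transcript, scaled to library depth (FPKM), in bone-marrow-derived macrophages (BMDMs), which were grown from mouse marrow with macrophage colony-stimulating factor. Control BMDMs came from *Lyz2cre* mice (n = 3), and CITED2-deficient BMDMs came from *Lyz2cre:CITED2Fl/Fl* mice (n = 3), with no stimulus named for either. Both genotypes were on the C57BL/6 background, and the labels give an age of 10 postnatal weeks, while the study's methods state a younger age for marrow donors. Both also carry the Cre allele, which is driven by the *Lyz2* locus and is therefore active in myeloid cells. The labels do not say whether each library came from a separate mouse, so the p-values measure the spread between these libraries, which may be technical.

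The family has no common fold. Class A receptors such as MSR1 and MARCO are trimers with a collagen-like stalk that bind polyanionic ligands, while CD163 and CD5L carry scavenger receptor cysteine-rich domains. CD163 takes up the complex of haptoglobin and hemoglobin, and CD5L is secreted by tissue macrophages. SCARB1 exchanges cholesterol with high-density lipoprotein, STAB1 is an endocytic receptor of tissue macrophages and sinusoidal endothelium that clears SPARC and oxidized lipoproteins, and CD68 is a heavily glycosylated protein of late endosomes and lysosomes. OLR1 is a lectin-like receptor for oxidized low-density lipoprotein, best known in endothelial cells.

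*Stab1*, *Cd163*, *Marco* and *Scarb1* fell in CITED2-deficient BMDMs, and *Cd5l* rose. *Cd163* was 5.23-fold lower and *Stab1* was 2.88-fold lower by mean FPKM, while *Scarb1* was 1.26-fold lower and *Cd5l* was 1.37 times as high. *Cd68* and *Msr1* did not pass the threshold, and *Olr1* was below the filter on low values. The test, limma on log2(FPKM + 1) with a threshold of 0.05 on the adjusted p, took in the 11687 genes whose FPKM averaged 1 or more, 7 of the 8 receptors among them. *Marco* reached this filter only through the control libraries, where it is high, so a gene like it had to differ to be tested, and its call adds no support to the counts that follow. Past the threshold were 5 receptors, 4 lower and 1 higher, where 51.3% of all tested genes passed, 34.6% as lower and 16.7% as higher. At least 2-fold lower among these 5 in FPKM + 1 were 3 receptors (*Cd163*, *Stab1* and *Marco*). On that scale, which compresses low values, 5.26% of tested genes changed at least 2-fold and 1.54% fell that far. The libraries of the 2 genotypes did not overlap for 6 of the 8 receptors and for 59.9% of tested genes. The receptors past the threshold are therefore read gene by gene and not as a group. All tested genes had a median log2 difference of -0.10. Of the genes past the threshold 32.5% were higher, which became 52.0% after median-ratio scaling and 76.1% when the libraries were scaled to macrophage marker genes. Those marker genes moved in both directions, with log2 differences from -1.59 for *Lyz2* to 1.48 for *Fcgr1*. Calls and signs under that scaling therefore depend on the markers chosen.

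**Figure D1:**
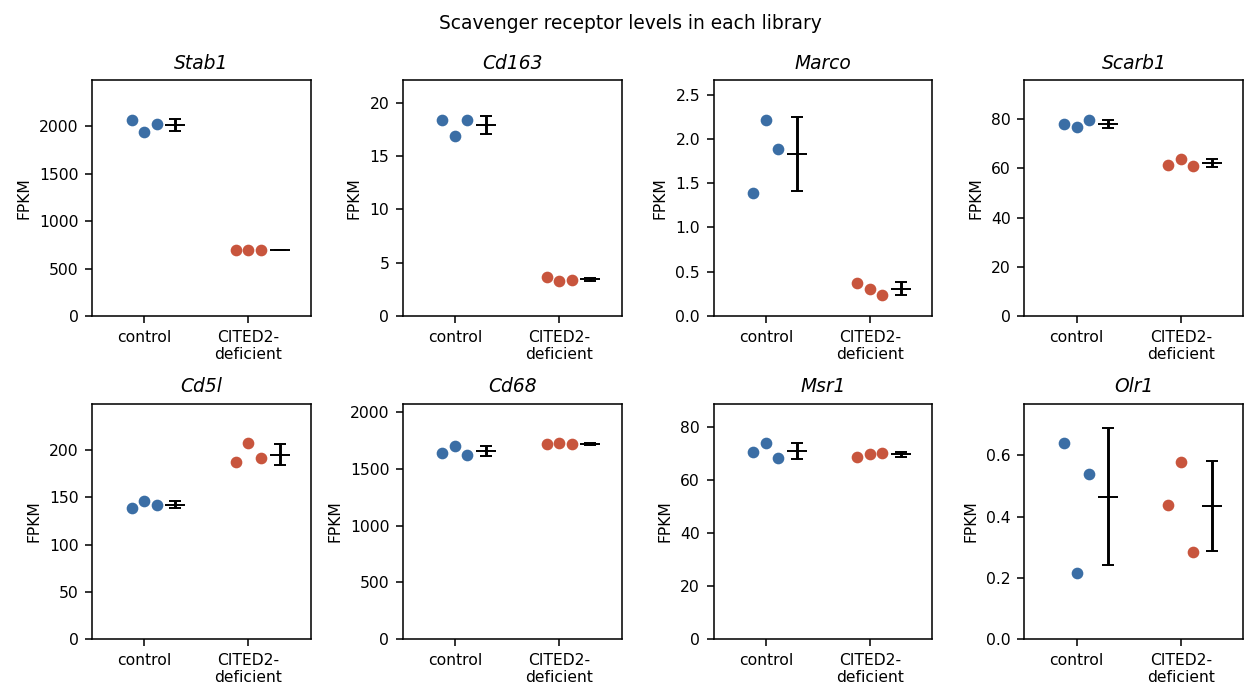
FPKM of each receptor in each library (points, linear axis from 0), with control libraries at the left and CITED2-deficient libraries at the right of each panel and the mean ± SD of 3 libraries as bars. *Stab1*, *Cd163*, *Marco* and *Scarb1* lie lower and *Cd5l* higher in all CITED2-deficient libraries, *Cd68* differs by little, and *Msr1* and *Olr1* overlap between the groups.

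*Cited2* itself, at an FPKM of 71.7, 79.3 and 75.5 in control replicates 1 to 3, was down to 9.27, 7.22 and 7.53 in CITED2-deficient replicates, in the direction of the labels but not to 0. The FPKM rest on 17289286 to 18952077 fragments per control library and 22583995 to 26100410 per CITED2-deficient library. Macrophage genes were abundant in every library. *Adgre1*, which encodes F4/80, had a mean FPKM of 2214 ± 20.9 and 1776 ± 34.9 (SD, n = 3 each). *Csf1r*, the receptor for macrophage colony-stimulating factor, had 1135 ± 12.5 and 916 ± 10.5. Of the 9 macrophage markers 5 were lower, 1 was higher and 3 did not pass. Beside this and the marker counts that follow, 51.3% of all tested genes passed, 34.6% as lower and 16.7% as higher. *Lyz2*, the locus that carries Cre, was low and fell from 31.3 ± 1.03 to 9.75 ± 0.333, and it shares sequence with *Lyz1*. Summed FPKM of 9 fibroblast or stromal markers was 42.6 to 51.1 in control and 172 to 547 in CITED2-deficient libraries, with all 7 tested markers higher and the top value in CITED2-deficient replicate 1. Of these 7, *Postn* and *Pdgfrb* had a mean FPKM of 1 or more in the CITED2-deficient libraries alone, so that their direction was fixed by the filter. For 8 endothelial markers the sums were 8.80 to 9.70 and 31.4 to 37.1, with 3 of 5 tested markers higher and 1, *Stab2*, lower. Of these, *Flt1* and *Cdh5* reached the filter through the CITED2-deficient libraries and *Stab2* through the control libraries, which leaves *Kdr*, above 1 in both. Of 8 neutrophil and precursor markers 5 of 7 tested were lower and 1 was higher. The markers of dendritic, B, T and NK and erythroid cells were all below the filter. Of the mast cell and basophil markers only *Kit* was tested, and it did not pass. Of the osteoclast markers *Ctsk* was higher and *Acp5* did not pass. In bulk RNA, fewer cells of a type and less RNA per cell cannot be told apart. The part of these cell types in the results below was not tested. Without CITED2-deficient replicate 1, the log2 fold changes were -1.53 for *Stab1*, -2.12 for *Cd163*, -1.14 for *Marco*, -0.32 for *Scarb1* and 0.48 for *Cd5l*, close to those of all 6 libraries.

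The 250 bases before the RefSeq start site are shown for the receptors with the largest falls and for *Cd5l*, which rose, in GRCm38.p6 (the mm10 assembly). RefSeq promoters were matched for 6 of the 8 genes. Capitals mark matches, on either strand, to 5 motifs of factors at work in macrophages. They were GAGGAA for PU.1, TGAGTCA for AP-1, TGCTGA as a half-site of MAF factors, TTCNNNGAA for STAT factors and, for the interferon-stimulated response element, GAAA and GAAA with any 2 bases between them.
Stab1 (chr14:31168642-31168891, minus strand): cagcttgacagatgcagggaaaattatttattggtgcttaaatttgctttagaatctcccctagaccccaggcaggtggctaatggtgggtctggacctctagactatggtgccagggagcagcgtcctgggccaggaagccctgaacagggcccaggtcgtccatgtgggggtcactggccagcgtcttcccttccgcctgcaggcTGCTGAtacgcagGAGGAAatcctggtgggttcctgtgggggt
Cd163 (chr6:124304401-124304650, plus strand): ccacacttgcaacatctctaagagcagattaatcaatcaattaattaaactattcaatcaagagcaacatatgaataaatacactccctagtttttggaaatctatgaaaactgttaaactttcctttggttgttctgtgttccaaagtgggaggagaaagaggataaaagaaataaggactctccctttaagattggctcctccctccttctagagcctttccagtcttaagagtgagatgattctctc
Marco (chr1:120505025-120505274, minus strand): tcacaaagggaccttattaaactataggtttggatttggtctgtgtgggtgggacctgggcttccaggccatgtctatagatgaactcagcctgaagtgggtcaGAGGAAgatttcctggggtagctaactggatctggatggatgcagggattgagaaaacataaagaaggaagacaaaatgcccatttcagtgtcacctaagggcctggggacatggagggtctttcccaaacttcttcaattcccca
Cd5l (chr3:87357631-87357880, plus strand): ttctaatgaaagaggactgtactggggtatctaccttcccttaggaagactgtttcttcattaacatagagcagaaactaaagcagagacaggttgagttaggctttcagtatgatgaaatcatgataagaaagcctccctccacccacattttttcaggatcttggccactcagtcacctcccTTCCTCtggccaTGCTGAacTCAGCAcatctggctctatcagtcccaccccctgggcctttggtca
Positions are counted backward from the start site, with -1 the last base before it. *Stab1* held TGCTGA at -43 to -38 and GAGGAA at -30 to -25. *Marco* held GAGGAA at -146 to -141. *Cd5l* held GAGGAA on the opposite strand at -66 to -61 and TGCTGA on both strands, at -54 to -49 and -46 to -41. *Cd163* held none of the 5 motifs in this window. Of 32851 windows of this length, 23.3% held GAGGAA, 16.1% TGCTGA, 4.46% TGAGTCA, 7.02% the STAT motif and 2.98% the interferon motif. None of these matches overlapped another. GAGGAA was thus present in *Stab1* and *Marco*, which fell, and in *Cd5l*, which rose. The matched windows not shown, those of *Cd68* and *Olr1*, held GAGGAA and TGAGTCA as well, and neither gene was called. A match describes the letters of the window and does not show a binding site.

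*Stab1* (ENSMUSG00000042286, minus strand of chromosome 14, 31139013 to 31168641 in mm10) had an FPKM of 2071, 1944 and 2027 in control replicates 1 to 3. In CITED2-deficient replicates 1 to 3 it had 700.4, 698 and 699. The groups lay far apart, and the CITED2-deficient libraries were within 3 FPKM of each other. The means were 2014 ± 64.7 and 699 ± 1.36 (SD, n = 3 each), a log2 difference of -1.52 (SE 0.03, adjusted p = 1.05e-09 in limma). Relative to the median of all tested genes the fall was -1.42. Over 17 alternative settings the log2 fold change lay between -1.55 and -1.29 and passed each time. *Stab1* stood 60th from the largest fall among the 11687 tested genes. In a single library, *Stab1* had 66374 to 77310 fragments in control BMDMs and 31120 to 36045 in CITED2-deficient BMDMs, so counting error was small. An exonic stretch of 112 bases is shared with *Nt5dc2* on the opposite strand, and the kit was stranded, but the sources used here do not say whether the counting used strand. Its paralog *Stab2*, the clearance receptor for hyaluronan of sinusoidal endothelium, was much lower in level and fell as well, from 2.75 ± 0.422 to 0.958 ± 0.174 (log2 difference -0.94, adjusted p = 0.000426 in limma). *Stab2* too passed the filter through the control libraries. The endothelial gene *Lyve1* was near 0 in both groups, with means of 0.0286 and 0.0149, and *Kdr*, the main receptor for vascular endothelial growth factor, rose from 4.26 ± 0.349 to 27.5 ± 3.22.

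*Cd163* (ENSMUSG00000008845, plus strand of chromosome 6, 124304656 to 124330527) had an FPKM of 18.4, 16.9 and 18.4 in control BMDMs and 3.62, 3.26 and 3.41 in CITED2-deficient BMDMs. All control libraries lay above all CITED2-deficient libraries, and the replicates of each genotype were alike, with coefficients of variation of 4.85% and 5.25%. The means were 17.9 ± 0.868 and 3.43 ± 0.180 (SD, n = 3 each). A log2 difference of -2.09 (SE 0.07, adjusted p = 2.71e-08 in limma) placed it 21st from the largest fall. On fragments recovered from the FPKM and fitted with voom it was -2.38. The fragments numbered 1133 to 1351 in control and 285 to 356 in CITED2-deficient libraries. Of the 7 tested neutrophil and precursor markers, 5 were lower as *Cd163* was, where 34.6% of all tested genes were lower. *Elane*, neutrophil elastase, had 12.4 ± 0.491 and 2.15 ± 0.0701, and *Mpo*, myeloperoxidase, had 16.2 ± 2.32 and 1.95 ± 0.271 (SD, n = 3 each). In the same list *Ltf*, lactoferrin, rose from 94.3 ± 4.77 to 177 ± 13.2, and *S100a9*, a calgranulin, did not pass (log2 difference -0.11). The part of these markers in the fall of *Cd163* was not tested.

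*Marco* (ENSMUSG00000026390, minus strand of chromosome 1, 120474538 to 120505024) was scarce, with an FPKM of 1.38, 2.22 and 1.89 in control BMDMs and 0.377, 0.309 and 0.234 in CITED2-deficient BMDMs. These values stand for 30, 44 and 41 fragments against 11, 8 and 7 fragments from deeper libraries. The groups did not overlap, and control replicate 1 was the lowest of its group. Summed over libraries there were 115 fragments in control BMDMs (95% exact Poisson interval 94.9 to 138) and 26 in CITED2-deficient BMDMs (17.0 to 38.1), and these intervals cover counting error only. By mean FPKM *Marco* was 5.97-fold lower, from 1.83 ± 0.420 to 0.307 ± 0.0718 (SD, n = 3 each). On the log2(FPKM + 1) scale, which compresses low values, the difference was only -1.11 (SE 0.16, adjusted p = 0.000412 in limma). It was -2.24 with a pseudocount of 0.1 and -2.51 with voom. The size of the fall therefore depended on the scale. Since *Marco* entered the test through the control libraries, its values and fragments are given here as a description.

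*Scarb1* (ENSMUSG00000037936, minus strand of chromosome 5, 125277087 to 125341094) had an FPKM of 77.9, 76.7 and 79.9 in control BMDMs and 61.5, 63.8 and 60.9 in CITED2-deficient BMDMs. The groups did not overlap and the spread within each was small. The means of 78.2 ± 1.58 and 62.1 ± 1.55 (SD, n = 3 each) lay -0.33 apart on the log2 scale (SE 0.03, adjusted p = 6.01e-05 in limma), or -0.23 relative to the median of all genes. Scaling to macrophage markers left -0.097, with an adjusted p of 0.0403 from limma. Those markers differed in direction, from -1.59 for *Lyz2* to 1.48 for *Fcgr1*, so this value depends on the markers chosen. Among the tested genes, *Adgre1* was the second nearest to *Scarb1* in its pattern over the 6 libraries.

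*Cd5l* (ENSMUSG00000015854, plus strand of chromosome 3, 87357881 to 87371073) was the only one of the 7 tested receptors to rise past the threshold with the FPKM as deposited. Its FPKM was 138, 146 and 142 in control BMDMs and 187, 207 and 191 in CITED2-deficient BMDMs. Each CITED2-deficient library lay above each control library, with replicate 2 the highest. The means were 142 ± 3.87 and 195 ± 10.8 (SD, n = 3 each), a log2 difference of 0.45 (SE 0.04, adjusted p = 2.67e-05 in limma), or 0.55 relative to the median of all genes. Alternatives gave 0.41 to 0.69, and all passed. *Cd5l* and *Cd163*, which both carry cysteine-rich scavenger domains, thus moved in opposite directions. The deposited FPKM of *Cd5l* was 7.50 to 8.63 times that of *Cd163* within control libraries and 51.6 to 63.6 times within CITED2-deficient libraries, or 8.60 to 9.89 and 59.2 to 72.9 times per kilobase of the longest transcript. *Nr1h3*, which encodes the liver X receptor alpha that is known to induce *Cd5l*, rose from 11.7 ± 0.447 to 20.3 ± 2.37 (log2 difference 0.74, adjusted p = 6.32e-05 in limma). The other liver X receptor gene, *Nr1h2*, went from 122 ± 2.34 to 112 ± 4.75 (-0.13, adjusted p = 0.0198 in limma). That call was lost with quantile normalization and median-ratio scaling, and its sign turned with macrophage marker scaling. *Rxra*, the gene of their shared partner, fell (-0.78). The part of these genes in the rise of *Cd5l* was not tested.

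**Figure D2:**
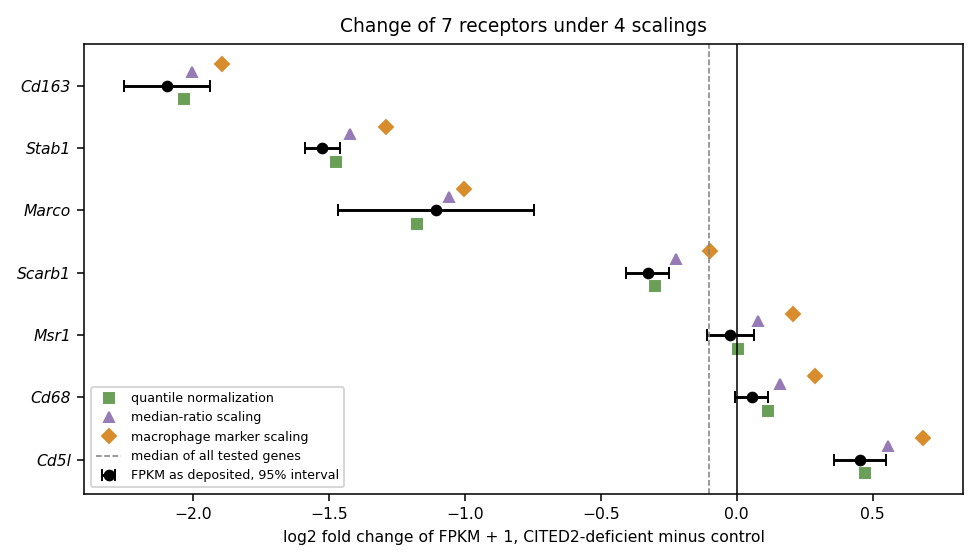
Log2 fold changes of the 7 tested receptors on the FPKM + 1 scale, CITED2-deficient minus control, with the 95% interval from limma for the FPKM as deposited (black) and the values under 3 other scalings. *Cd163*, *Stab1*, *Marco* and *Scarb1* stay below 0 and *Cd5l* stays above it under all 4 scalings, while *Msr1* and *Cd68* move with the scaling, and the dashed line marks the median of all tested genes at -0.10.

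*Cd68* (ENSMUSG00000018774, minus strand of chromosome 11, 69664213 to 69666153) had an FPKM of 1640, 1702 and 1619 in control BMDMs and 1713, 1725 and 1713 in CITED2-deficient BMDMs. The lowest CITED2-deficient library stood just above the highest control library, as groups did not overlap for 59.9% of all tested genes. The log2 fold change was 0.055, with a 95% interval from -0.0056 to 0.12 (adjusted p = 0.116 from limma). This bounds any change of *Cd68* to a small one on the deposited scale, but quantile normalization gave 0.11, median-ratio scaling 0.16 and macrophage marker scaling 0.29, each past the threshold. *Msr1* (ENSMUSG00000025044, minus strand of chromosome 8, 39581685 to 39642673) had 70.3, 73.8 and 68.1 against 68.6, 69.7 and 70.2. The libraries of both groups were interleaved. Its log2 fold change was -0.024, with a 95% interval from -0.11 to 0.062 (adjusted p = 0.623 from limma). Quantile normalization turned it to 0.0051 and median-ratio scaling to 0.078, neither past the threshold, and macrophage marker scaling turned it to 0.21, past the threshold (adjusted p = 0.00301 from limma). The direction for *Msr1* is therefore not settled by these data. *Olr1* (ENSMUSG00000030162, minus strand of chromosome 6, 129485244 to 129507165) gave 13, 4 and 11 fragments in control and 12, 14 and 8 in CITED2-deficient libraries. A difference was not detectable at this depth. Fitted without a filter, its log2 fold change was -0.024 (95% interval -0.35 to 0.30, adjusted p = 0.920 from limma). At a mean FPKM of 0.465 in control and 0.434 in CITED2-deficient BMDMs, log2(FPKM + 1) compresses any change. The interval therefore does not bound the fold change of its FPKM to that range.

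The receptors spanned more than 3 orders of magnitude in level. FPKM are divided by the mean length of all annotated transcripts of a gene, and this matters for the order. *Stab1* has 13 transcripts in GENCODE vM21, from 242 to 7999 bases, with a mean of 1975 bases, so its FPKM is 4.05 times the value per kilobase of the longest transcript. On the deposited FPKM, *Stab1* (2014) stood above *Cd68* (1654) in control BMDMs, and their libraries did not overlap. Per kilobase of the longest transcript, *Cd68* (1277 ± 33.5) stood above *Stab1* (497 ± 16.0) in control BMDMs (SD, n = 3 each). In CITED2-deficient BMDMs on that scale *Stab1* (173 ± 0.336) also fell below *Cd5l* (195 ± 10.8). *Scarb1* and *Msr1* were neighbors in level, with *Scarb1* the higher in control BMDMs and *Msr1* the higher in CITED2-deficient BMDMs on both scales, and their libraries did not overlap. *Marco* and *Olr1* overlapped in CITED2-deficient BMDMs and not in control BMDMs. The longest transcript was chosen as a length after the data had been seen, and differences between genotypes within a gene are not touched by it.

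**Figure D3:**
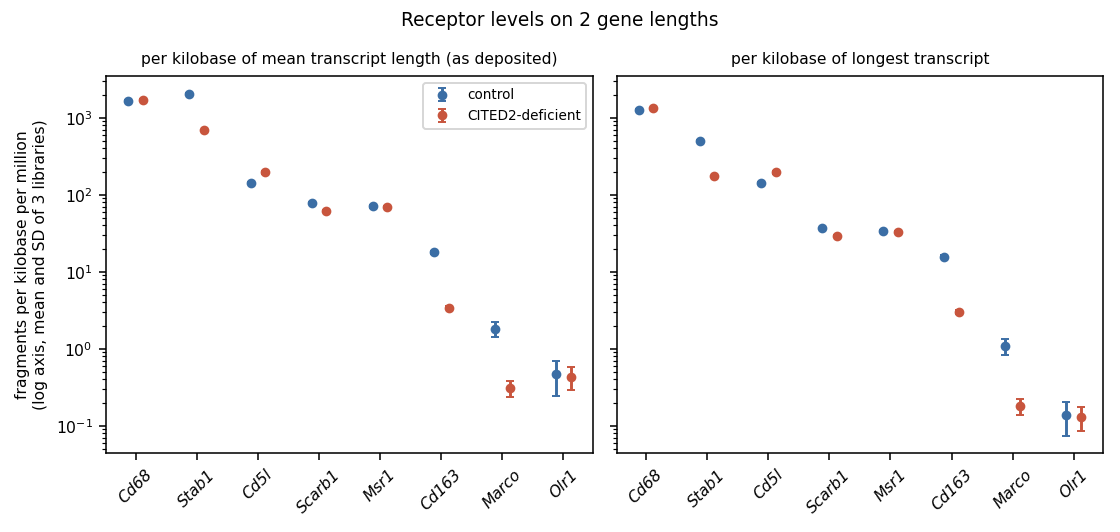
Mean ± SD (3 libraries) of each receptor in control and CITED2-deficient BMDMs on a log axis, per kilobase of the mean transcript length as deposited (left) and of the longest transcript (right). *Stab1* tops the control BMDMs at 2014 on the left and stands below *Cd68* at 497 on the right, while the gap between genotypes within each gene is the same in both panels.

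The share of *Stab1* in the receptors' summed level was lower in CITED2-deficient BMDMs on both scales, but its size depended on the length used. The 8 receptors summed to a deposited FPKM of 3956 to 4017 in control libraries and 2735 to 2768 in CITED2-deficient libraries. *Stab1* made up 49.1% to 51.6% of that sum in control libraries and 25.2% to 25.6% in CITED2-deficient libraries, while *Cd68* made up 40.8% to 43.0% and 62.3% to 62.6%. Per kilobase of the longest transcript the sums were 1979.9 to 2028 and 1748 to 1778.5, and the share of *Stab1* was 23.7% to 25.5% in control and 9.69% to 9.89% in CITED2-deficient libraries. Within each library, the ratio of *Stab1* to *Cd68* in deposited FPKM was 1.14 to 1.26 in control BMDMs and 0.404 to 0.409 in CITED2-deficient BMDMs. It was 0.365 to 0.404 and 0.129 to 0.131 per kilobase of the longest transcript, so that *Stab1* stood above *Cd68* in control BMDMs on the deposited scale alone. A scaling between libraries does not change these ratios, while the length does. In deposited FPKM the ratio of *Scarb1* to *Cd68* was 0.0451 to 0.0493 against 0.0356 to 0.0370. The ratio of *Msr1* to *Cd68* was 0.0421 to 0.0434 against 0.0400 to 0.0410, which is lower in every CITED2-deficient library although neither gene passed the threshold on its own.

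The genes nearest to each changed receptor were found by the distance between centred log2(FPKM + 1) profiles over the 6 libraries, which reflects mostly the size of the genotype difference. *Stab1* was nearest to *Prune2* (distance 0.0638), *Pomk* (0.0861) and *Lyz2* (0.128). *Cd163* was nearest to the paired genes *Tmem176b* (0.108) and *Tmem176a* (0.129), followed by *Elane* (0.206). *Tmem176b* was far more abundant than *Cd163*, with a mean FPKM of 287 in control and 65.0 in CITED2-deficient BMDMs. *Marco* was nearest to *Rap1gap* (0.185), *Il16* (0.244) and the orphan nuclear receptor *Nr4a1* (0.245). *Scarb1* was nearest to *Crebrf* (0.0399), *Adgre1* (0.0418) and *Raph1* (0.0441), and *Cd5l* to *Max* (0.0704), *Plekhn1* (0.0725) and *Tbc1d9* (0.0803).

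Of 23 scavenger receptors of other genes and classes 22 were in the data and 13 were tested. In limma 6 rose, 4 fell and 3 did not pass, where 51.3% of all tested genes passed, 16.7% as higher and 34.6% as lower. Their median log2 fold change was 0.12 against -0.10 for all tested genes, and macrophage marker scaling gave 8 higher and 2 lower. Together with the 7 receptors above, 7 rose, 8 fell and 5 did not pass. Among these falls, *Stab2* and *Marco* reached the filter through the control libraries only, so their direction was fixed by the filter and adds no support to the counts. The largest rise was that of *Lgals3bp*, a secreted protein with a cysteine-rich scavenger domain, from 542 ± 16.9 to 1965 ± 43.4 (log2 difference 1.86, adjusted p = 7.22e-10 in limma). *Clec7a*, the beta-glucan receptor Dectin-1, rose from 193 ± 9.37 to 329.9 ± 12.3 (log2 difference 0.77, adjusted p = 7.12e-07 in limma). *Cxcl16*, a transmembrane chemokine that binds oxidized lipoprotein, *Scarf1* and *Cd44* also rose under each scaling. *Lrp1* passed narrowly (0.081, adjusted p = 0.0456 from limma), and that call was lost in 9 alternatives, among them the replicate block. It held with quantile normalization, median-ratio scaling and macrophage marker scaling (0.14, 0.18 and 0.31). The largest fall was that of *Mrc1*, the mannose receptor, from 353 ± 4.09 to 104 ± 5.66 (log2 difference -1.76, adjusted p = 2.19e-09 in limma). *Cd36*, the class B receptor for oxidized lipoprotein, fell from 460.1 ± 13.9 to 373 ± 14.5 (-0.30) and *Colec12* from 21.8 ± 0.487 to 17.4 ± 1.44 (-0.31), and both lost the call when scaled to macrophage markers. The other class B member *Scarb2*, a lysosomal protein, did not pass (-0.042), was above 0 after median-ratio scaling and passed as higher with macrophage marker scaling (0.19, adjusted p = 0.0036 from limma). The remaining 9 receptors in the data were below the filter, with group means from 0 to 1.00.

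**Figure D4:**
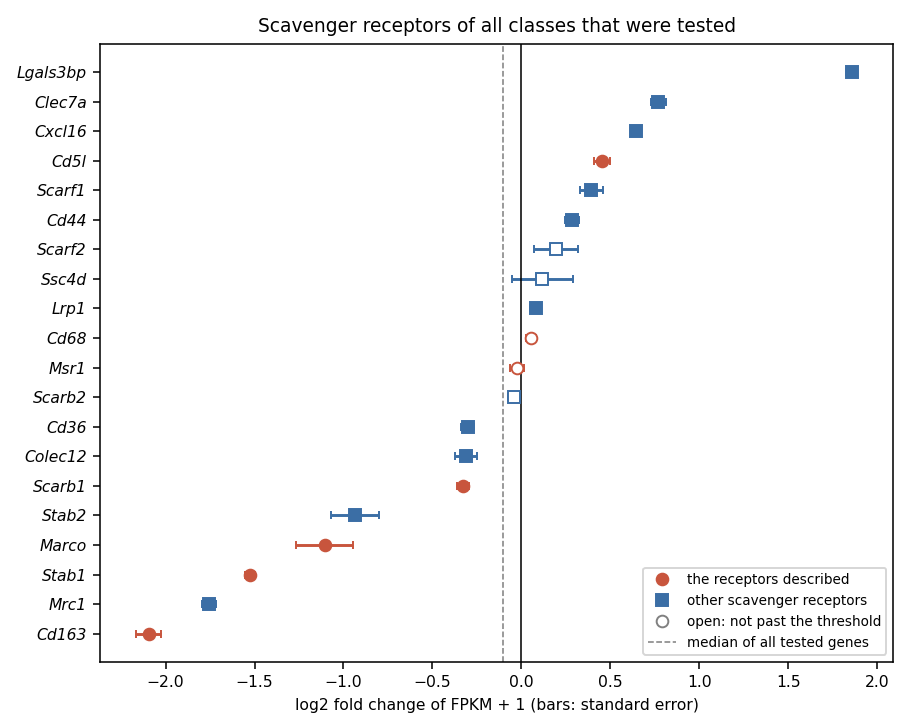
Log2 fold change (CITED2-deficient minus control) with its standard error for the 20 scavenger receptors that were tested, the receptors described in the text as red circles and those of other classes as blue squares, open where the threshold was not passed. *Cd163*, *Mrc1*, *Stab1*, *Marco* and *Stab2* lie at the lower end and *Lgals3bp*, at 1.86, lies apart at the upper end, with *Msr1*, *Cd68* and *Scarb2* near 0.

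Of 20 listed genes for ligands, adaptors and carriers in the data, 16 were tested. Of these 2 rose, 10 fell and 4 did not pass, where 51.3% of all tested genes passed, 16.7% as higher and 34.6% as lower. The median log2 fold change was -0.25 against -0.10 for all tested genes. The balance turned with the scaling, to 4 higher and 8 lower after median-ratio scaling and 6 higher and 5 lower with macrophage marker scaling. *Gas6*, which bridges dying cells to their receptors, fell from 500.4 ± 3.91 to 251 ± 5.42 (log2 difference -0.99, adjusted p = 6.97e-09 in limma). The complement genes *C1qa*, *C1qb* and *C1qc*, whose products mark cargo for uptake, fell, with log2 differences of -0.56, -0.35 and -0.36, as did *Pltp*, the phospholipid transfer protein of lipoproteins (-0.52). The falls of *Gas6*, *Pltp* and the C1q genes passed under each scaling. *Apoe*, at a mean FPKM of 21209 in control BMDMs, was lower (-0.21). That call was lost with median-ratio and macrophage marker scaling, and its sign turned with the latter. Quantile normalization gives a gene of equal rank in every library the same value, so it could not test *Apoe*. *Hp*, which encodes the haptoglobin that CD163 binds in its complex, rose from 8.17 ± 0.819 to 13.4 ± 1.75 (0.65), while *Cd163* fell. *Sparc*, which encodes a ligand of STAB1, rose from 18.9 ± 2.67 to 88.3 ± 43.5 (2.07) as the stromal markers did, while *Stab1* fell.

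Among 20 genes that handle cargo after uptake, 6 rose, 10 fell and 4 did not pass, against the same 51.3%, 16.7% higher and 34.6% lower, of all tested genes. Median-ratio scaling gave 8 higher and 8 lower, and macrophage marker scaling gave 11 higher and 5 lower. The list holds 8 genes of heme and iron, a subset singled out after its values had been seen, and all 8 fell on the FPKM as deposited. *Hmox1*, heme oxygenase, fell from 569 ± 10.4 to 311 ± 3.52 (log2 difference -0.87, adjusted p = 1.47e-08 in limma). The biliverdin reductases *Blvrb* (-0.68) and *Blvra* (-0.42), the metal transporter *Slc11a1* (-0.67) and the heme transporter *Slc48a1* (-0.47) fell under each scaling. *Slc40a1*, the iron exporter ferroportin, was lower (-0.28) and lost the call with macrophage marker scaling. The ferritin chains *Fth1* (-0.099) and *Ftl1* (-0.22) turned above 0 with macrophage marker scaling, and *Fth1* also with median-ratio scaling. *Fth1* passed as higher (0.14) with macrophage marker scaling and had no call with median-ratio scaling. Quantile normalization could not test *Fth1*, which held the same rank in every library. Of the 7 genes of cholesterol and lipid handling 4 rose, 1 fell and 2 did not pass. *Npc2*, which carries cholesterol out of the lysosome, rose from 476 ± 9.53 to 908 ± 4.74 (0.93), *Abcg1*, an exporter to high-density lipoprotein, from 98.7 ± 1.13 to 169.6 ± 8.36 (0.77) and *Plin2*, a coat protein of lipid droplets, from 1101 ± 28.8 to 1691 ± 41.0 (0.62). *Npc1*, the partner of *Npc2*, went the other way (-0.26), a call lost with macrophage marker scaling, and *Abca1* did not pass (-0.099, above 0 with median-ratio scaling and called higher with macrophage marker scaling, at 0.13). Among the 5 lysosome genes *Lamp2* (0.31) and *Ctsd* (0.29) rose, *Lamp1* fell (-0.15), and *Ctsb* and *Ctsl* did not pass, though both passed as higher with macrophage marker scaling. The call of *Ctsd* was lost with quantile normalization, and that of *Lamp1* with median-ratio and macrophage marker scaling, the latter turning its sign.

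**Figure D5:**
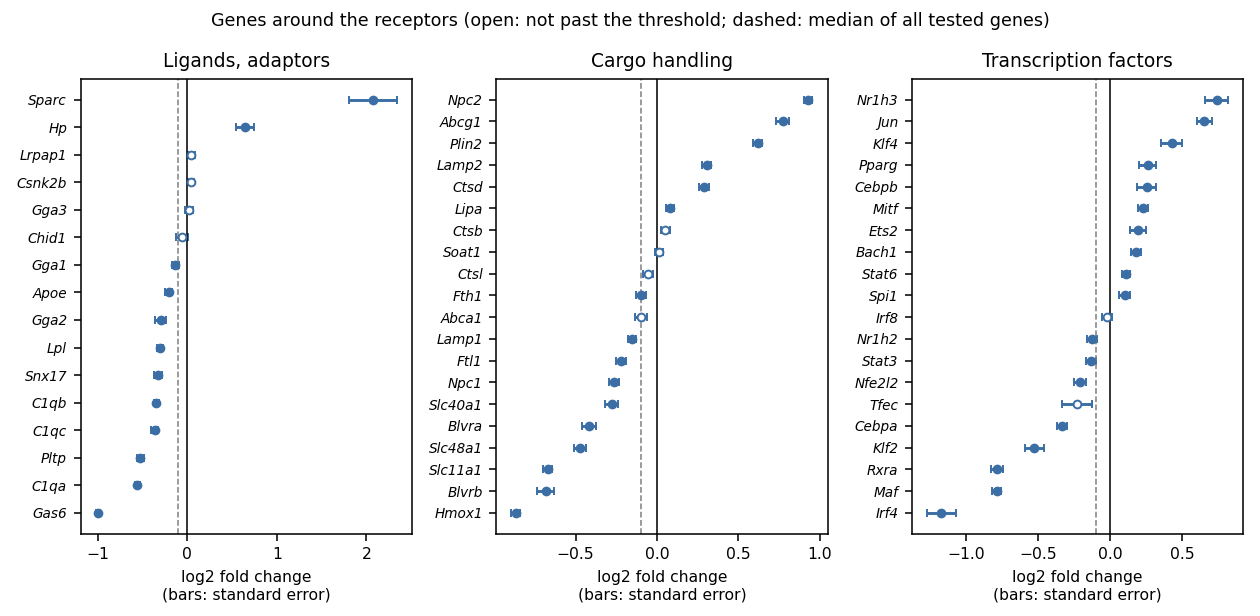
Log2 fold changes (CITED2-deficient minus control) with standard errors for tested ligands and adaptors, cargo-handling genes and transcription factors tied to scavenger receptors, open where the threshold was not passed, with the median of all tested genes as a dashed line. *Sparc* (2.07) and *Hp* (0.65) stand above the other ligands, *Hmox1* (-0.87) lies lowest among cargo-handling genes, and *Irf4* (-1.17) lies lowest among the 20 factors shown.

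Of 22 transcription factors tied to these receptors 11 rose, 8 fell and 3 did not pass, set beside 16.7% higher and 34.6% lower among the 51.3% of all tested genes that passed. Macrophage marker scaling gave 15 higher and 4 lower. *Maf*, a factor of tissue macrophages known to act at scavenger receptor genes, fell from 162 ± 2.69 to 93.8 ± 2.12 (log2 difference -0.79, adjusted p = 8.1e-08 in limma). *Rxra*, the shared partner of liver X receptors and PPAR-gamma, fell from 61.5 ± 2.08 to 35.3 ± 1.04 (-0.78). *Irf4*, a factor of alternative activation, had the largest fall of the list, from 5.94 ± 0.286 to 2.09 ± 0.266 (-1.17). *Jun*, a subunit of AP-1, rose from 44.4 ± 1.39 to 70.5 ± 4.57 (0.65). *Spi1*, which encodes PU.1, had 459 ± 5.03 and 492 ± 23.1 and passed narrowly (0.10, adjusted p = 0.0402 from limma), and that call was lost when any 1 control library or CITED2-deficient replicate 3 was left out. It was also lost with no filter and with a variance that did not follow the mean. Quantile normalization, median-ratio scaling and macrophage marker scaling gave 0.17, 0.20 and 0.33 for *Spi1*, each past the threshold.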

How the data were processed

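RNA from 3 control and 3 CITED2-deficient BMDM libraries was depleted of ribosomal RNA and sequenced with a stranded kit. Per the study's methods STAR placed the reads on mm10, and the deposited FPKM per gene and library are what the authors obtained from Cuffdiff with a GENCODE annotation of unstated release. Division of the FPKM by 1 fragment's value, with the mean transcript length of GENCODE vM21, gave whole numbers within 0.02 in all libraries for 96.1% of 22239 matched genes. Log2(FPKM + 1) was fitted with limma 3.58.1 (R 4.3.3) letting the variance follow the mean, and p-values were adjusted by Benjamini-Hochberg over the 11687 genes that averaged an FPKM of 1 or more. The fit was tested on simulated data. The receptors, lists and tests were chosen with earlier results of these data known. Named genes are the 8 receptors, *Cited2*, the largest changes of each list, up to 2 each way, genes a result turns on, and the 3 genes nearest to each changed receptor. Others were added after their values had been seen. Single values of 2 transcription factors are not reported here. Alternatives were other pseudocounts, filters, scalings (quantile, median-ratio, macrophage markers), variance models, a replicate block, voom on recovered fragments and each library left out.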

Additional observations from a re-analysis of the deposited data

How the results depend on the processing

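The calls of *Stab1*, *Cd163*, *Scarb1* and *Cd5l* held in all 17 alternatives and *Marco*, which reached the filter through the control libraries only, was removed by a filter at a mean FPKM of 5. *Cd68* passed as higher after quantile normalization (0.11), median-ratio scaling (0.16) and macrophage marker scaling (0.29). *Msr1* turned from -0.024 to 0.0051, 0.078 and 0.21 under the same scalings and to 0.0068 without control replicate 2, and lay between -0.051 and 0.0068 as single libraries were dropped. Requiring a 2-fold change in FPKM + 1 left 615 of 5994 genes, 180 of them lower. It left 3 receptors (*Stab1*, *Cd163* and *Marco*), 2 other scavenger receptors, 1 ligand or carrier, 0 cargo-handling genes and 2 transcription factors. *Stab2*, with a mean FPKM of 2.75 in control and 0.958 in CITED2-deficient BMDMs, was left out, since that scale compresses low values. The 0 is against 16 cargo-handling genes without the fold rule in limma. With the replicate block 5708 genes and 5 receptors passed. Same-numbered libraries correlated by only 0.014, 0.0078 and 0.040 in their deviations from the group means. No pairing by number was seen, which does not show that there was none. Depth limits *Olr1* and *Marco*, with 4 to 44 fragments per library.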
